A study of Mus musculus with 26 samples.

Results

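The nuclear pore and the carriers that travel through it were followed in S49 cells, a mouse T-lymphoma line, during exposure to a cyclic AMP (cAMP) analog. Genes were taken by symbol: those that begin with Nup, Kpna, Kpnb, Ipo, Xpo or Tnpo and a digit, together with Nupl1, Nupl2, Ran, Rangap1, Ranbp1, Ranbp2, Rcc1, Cse1l, Tpr and Rae1. This gave 45 genes of the 12393 that the arrays name, measured by 90 of 22626 probe sets, and Tpr was not analysed here. Each gene stands for its brightest probe set, the one with the highest mean over all arrays. The rule uses symbols and no measured value, and it was set with earlier results of these data known.

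The cells were wild type (WT) or Kin-, an S49 variant isolated for its resistance to cAMP and known to lack active protein kinase A, the main kinase that cAMP switches on. Either line was left untreated, here called 0 h, or received 8-CPT-cAMP, an analog that enters cells, at 100 µM for 2, 6 or 24 h. Total RNA was measured on 26 arrays in 8 groups, with 4 arrays for untreated WT, 4 for untreated Kin- and 3 for each treated group. Untreated cells kept for 2, 6 or 24 h alongside the treated ones are not among the samples. Whether arrays of 1 group stem from different cultures is not stated in the labels, and a p-value therefore reflects array-to-array spread that may be technical. Precision is limited by how few arrays there are.

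The pore is a large channel through the nuclear envelope, built from several nested rings of nucleoporins. The Y complex and the inner ring form the scaffold, nucleoporins with phenylalanine-glycine (FG) repeats fill the channel, a basket faces the nucleus and filaments face the cytoplasm. Importins carry proteins inward and exportins carry cargo outward. The small GTPase Ran sets the direction, because its exchange factor Rcc1 sits on chromatin while its activating protein Rangap1 is in the cytoplasm. In lymphoid cells, as in other dividing cells, pores are assembled both in interphase and after mitosis.

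The deposited values have no stated scale. Their square root has the range of log2 intensities and was read as such, so 1 log2 unit below is 1 unit of that square root and may not be an exact doubling. A change is given with its standard error (SE) and a level with its standard deviation (SD). Calls are adjusted p-values under 0.05 from limma, adjusted by Benjamini and Hochberg over all 22626 probe sets, and "passed", "rose" and "fell" refer to them. All WT comparisons against 0 h share the same 4 untreated arrays. Arrays numbered 1 to 14 and 16 to 47 were treated as separate sets, a split made here by array number, and the labels name no sets. Each treated group has a single array of the first set, so counts are also given with a set term and within the sets. Among arrays of the same group the median root mean square difference was 0.23 within a set and 0.34 across sets. Of 7 measured T-cell markers the mean level per array lay between 9.0 and 9.97, with Cd5 lowest at 3.23 and Cd3d highest at 12.54. The mean of this list in WT was 9.61 untreated, 9.16 at 2 h, 9.26 at 6 h and 9.82 at 24 h, and its part in the results was not tested. Its members moved both ways at 24 h: Cd3e, Cd247, Cd3g and Cd3d rose by 1.10, 0.95, 0.86 and 0.78, and Cd2 and Thy1 fell by 1.36 and 0.77. Markers of B cells (3 measured), macrophages (4), fibroblasts (3) and erythroid cells (2) had array means between 2.89 and 4.76.

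After 24 h of the analog the median change of the transport genes in WT cells was below 0 in every role. Of the 45 genes, 38 fell, 0 rose and 7 did not pass. Among all genes 16.3% were called lower and 16.3% higher. At an unadjusted p under 0.05 in limma, 40 of the 45 were lower and 0 higher, with 38% of all genes under 0.05 in either direction. The median change of the 45 was −1.08, against −0.01 for all genes. Of the 38, 24 fell by at least 1 log2 unit, a size of fall that was not counted among all genes. The point estimate was below 0 for 44 genes and above 0 for Ipo8 alone, an importin, at 0.07 ± 0.13 (adjusted p = 0.882). In 37 genes all 3 arrays at 24 h lay below all 4 untreated WT arrays, as 16.8% of all genes did, and in 34 they lay below every untreated WT array and every Kin- array, as 13.3% of all genes did. The arrays measure bulk RNA, in which fewer cells with a transcript and less of it per cell cannot be told apart. With the set term 39 fell and 0 rose. Within arrays 16 to 47 the counts were also 39 and 0, with a median of −1.11. Within arrays 1 to 14, with a single treated array, they were 25 and 0, with a median of −0.76.

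**Figure D1:**
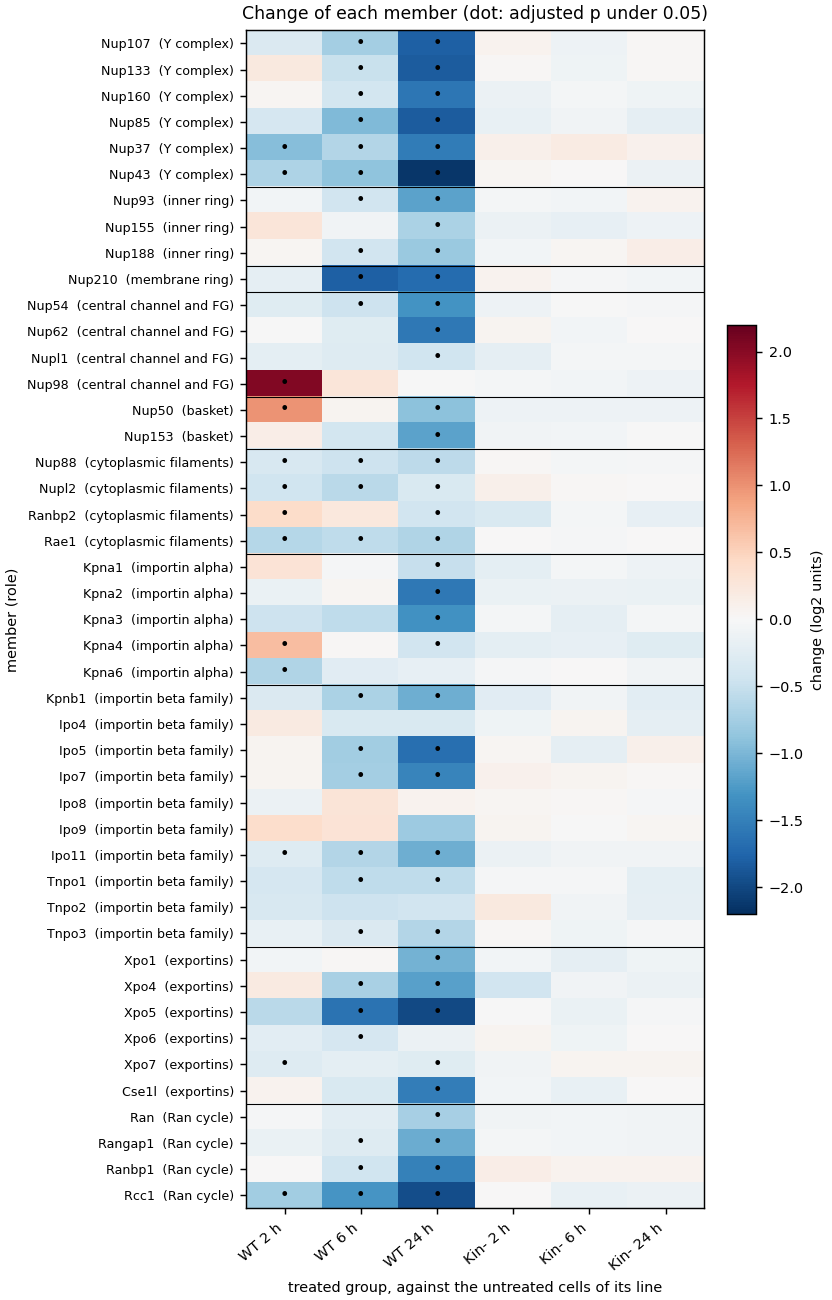
Change of each of the 45 genes (rows, by role) at 2, 6 and 24 h against the untreated cells of the same line (columns), in log2 units, blue lower and red higher; a dot marks adjusted p under 0.05 (limma). The WT 24 h column is blue apart from Nup98 (−0.01) and Ipo8 (0.07), with 38 dots, all for falls, and the 3 Kin- columns hold 0 dots.

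The 6 genes assigned here to the Y complex, the outer scaffold of the pore, had the lowest median at 24 h. This ranking is among roles with more than 1 measured gene of the 45. All 6 fell, with a median of −1.81. Seh1l and Sec13, subunits of the complex whose symbols lie outside the rule, fell by 1.21 and 0.59. Nup43, one of the Y complex subunits that vertebrates have and budding yeast lacks, had the largest change of the 45. Its levels were 8.78, 8.68, 8.88 and 8.80 in the untreated WT arrays, and 7.40, 6.28 and 6.29 at 24 h. The groups did not overlap, and the array of the first set, 7.40, was the highest of the 3. The change was −2.13 ± 0.18 (adjusted p = 1.11e-08). In Kin- cells Nup43 ranged from 8.49 to 8.85 over all 13 arrays, inside or near the range of untreated WT. Nup85 fell by 1.84 ± 0.26 (adjusted p = 6.41e-06), Nup133 by 1.83 ± 0.15 (adjusted p = 6.77e-09) and Nup107 by 1.79 ± 0.12 (adjusted p = 2.98e-10). Nup160 and Nup37 fell by 1.58 ± 0.14 and 1.54 ± 0.07. Nup133 and Nup107 belong to the stem of the Y, and Nup85, Nup160, Nup37 and Nup43 to its arms. The 6 are not the whole complex, and Nup98 was counted with the central channel alone.

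The medians of the inner ring, the central channel, the basket and the filaments at 24 h were −0.82, −0.87, −1.04 and −0.50. The inner ring genes Nup93, Nup155 and Nup188 all fell, by 1.19, 0.70 and 0.82. Nup210, a membrane protein that anchors the pore in the envelope, fell by 1.70 ± 0.15 (adjusted p = 2.27e-08). In the central channel Nup62, an FG nucleoporin and the core of the channel complex, fell by 1.58 ± 0.12 (adjusted p = 2.28e-09), and its partners Nup54 and Nupl1 by 1.31 and 0.43. Nup98, an FG nucleoporin that also binds active genes, had a change of −0.01 ± 0.21 (adjusted p = 0.996). The basket genes Nup153 and Nup50 fell by 1.19 and 0.90. All 4 genes of the cytoplasmic filaments fell by amounts between 0.33 and 0.67, with a median of −0.50: Rae1, an mRNA export factor, by 0.67, Nup88 by 0.58, Ranbp2, the large SUMO ligase of the filaments, by 0.42 and Nupl2 by 0.33. The call of Nupl1 was lost without WT 24 h array 19 (adjusted p = 0.0616), and that of Nupl2 without array 19 or 39 (adjusted p = 0.0682 and 0.0708).

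Of the genes of classical import, 4 of 5 importin alpha genes and Kpnb1 fell at 24 h. Importin alpha adaptors recognise the nuclear localisation signal and importin beta, which Kpnb1 encodes, carries the pair through the pore. Kpna2, an importin alpha known for its high level in dividing cells, had 12.53, 12.35, 12.60 and 12.38 in untreated WT arrays and 11.67, 10.33 and 10.68 at 24 h. All 3 treated arrays lay below the untreated ones, with the highest of them again from the first set. The change was −1.57 ± 0.19 (adjusted p = 1.1e-06). Kpna3, Kpna1 and Kpna4 fell by 1.34, 0.51 and 0.42, and Kpna6 had a change of −0.18 (adjusted p = 0.423). Kpnb1 had 11.89, 11.70, 11.43 and 11.52 in untreated WT arrays and 11.03, 10.25 and 10.39 at 24 h, again without overlap, and fell by 1.08 ± 0.15 (adjusted p = 7.05e-06).

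The importin beta family divided into genes that fell and genes that did not pass, 6 and 4 of 10. Besides Kpnb1 they were Ipo5 and Ipo7, which import ribosomal proteins and histones among other cargo, with falls of 1.66 ± 0.15 (adjusted p = 1.6e-08) and 1.46 ± 0.13, Ipo11 with 1.08, Tnpo3, an importer of splicing factors, with 0.65, and Tnpo1 with 0.55. By their brightest probe sets Ipo4, Ipo8, Ipo9 and Tnpo2 did not pass, with changes of −0.34, 0.07, −0.79 and −0.43. A dimmer probe set of Ipo4 fell by 0.51 (adjusted p = 0.0317). Dimmer ones of Ipo8 and Tnpo2 did not pass (−0.03 and −0.26, adjusted p = 0.91 and 0.321). The change of Ipo9 had the largest SE of the 45 genes, 0.30, with an adjusted p of 0.054, and it passed with the set term (−0.91, adjusted p = 6.84e-07). A p that misses the threshold does not show that these 4 genes kept their level.

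Exportins and the Ran cycle fell at 24 h in 5 of 6 and 4 of 4 genes. Xpo5, the exporter of pre-microRNAs, fell by 1.99 ± 0.27 (adjusted p = 3.62e-06), the second largest change of the 45. Xpo1, the receptor of leucine-rich export signals, had 11.66, 11.69, 11.98 and 11.88 in untreated WT arrays and 10.99, 10.57 and 10.72 at 24 h. The groups did not overlap and Xpo1 fell by 1.04 ± 0.11 (adjusted p = 1.32e-07). Cse1l, which returns importin alpha to the cytoplasm, went from 10.56, 10.64, 10.81 and 10.62 to 9.41, 8.98 and 9.03, a fall of 1.52 ± 0.12 (adjusted p = 3.38e-09). Xpo4 fell by 1.19 and Xpo7 by 0.27, the latter call lost without WT 24 h array 39 (adjusted p = 0.138). A dimmer probe set of Xpo7 fell by 0.56 (adjusted p = 1.87e-05). Xpo6, the exporter of actin with profilin, had a change of −0.13 (adjusted p = 0.502).

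Rcc1, the Ran exchange factor, was at 10.24, 10.35, 10.08 and 10.05 in untreated WT arrays and at 8.95, 7.51 and 8.24 at 24 h. All treated arrays lay more than 1 log2 unit below the untreated ones, with an SD of 0.72 among them, and Rcc1 fell by 1.95 ± 0.24 (adjusted p = 1.29e-06). Ran itself had 14.73, 14.76, 14.82 and 14.71 in untreated WT arrays and 14.35, 13.75 and 13.96 at 24 h, without overlap. It fell by 0.73 ± 0.09 (adjusted p = 1.98e-06). Ranbp1 and Rangap1, which act together to hydrolyse the GTP of Ran, fell by 1.49 ± 0.11 and 1.10 ± 0.10.

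**Figure D2:**
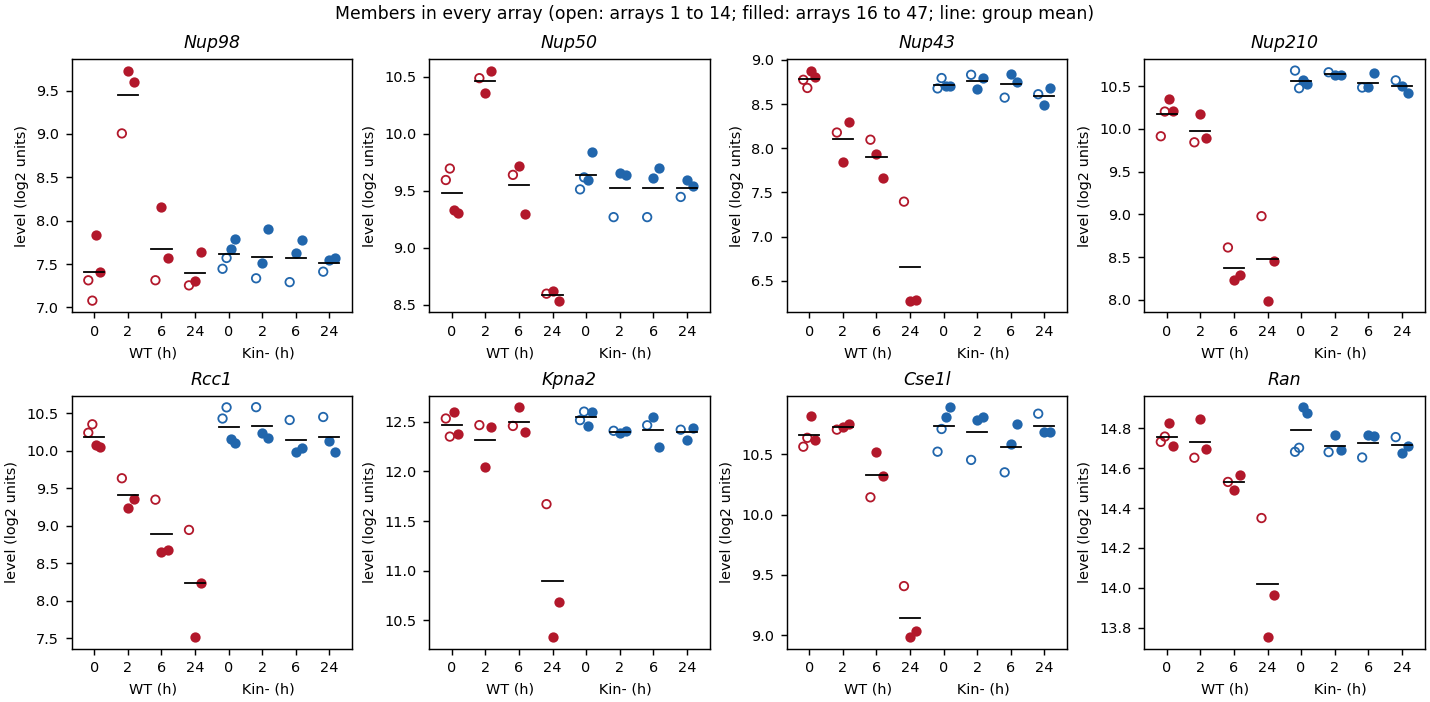
Level (log2 units) of 8 genes in every array, by group (hours of 8-CPT-cAMP; WT in red, Kin- in blue); open circles are arrays 1 to 14, filled circles arrays 16 to 47 and bars group means. The WT 24 h points of Nup43, Nup210, Rcc1, Kpna2, Cse1l and Ran lie below all untreated WT points, those of Nup98 overlap them, and the open circle is the highest of the 3 at 24 h in these 6 genes.

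At 2 h these genes had passed in both directions. Of the 45 genes, 4 rose, 9 fell and 32 did not pass, while 7.25% of all genes were called higher and 8.44% lower. The median was −0.14 against 0.05 for all genes. With the set term 4 rose and 12 fell, within arrays 16 to 47 the counts were 5 and 12, and within arrays 1 to 14 they were 0 and 0. Array weights gave 15 lower in place of 9.

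The rises at 2 h were led by Nup98. Its levels were 7.31, 7.08, 7.84 and 7.41 in untreated WT arrays and 9.01, 9.73 and 9.60 at 2 h, with every treated array above every untreated one. The rise was 2.04 ± 0.21 (adjusted p = 4.16e-07). In the Kin- arrays Nup98 stayed between 7.29 and 7.91. Nup50, a basket protein that helps release importin alpha from its cargo, had 9.59, 9.69, 9.33 and 9.31 untreated and 10.49, 10.35 and 10.55 at 2 h, and rose by 0.98 ± 0.13 (adjusted p = 8.25e-06). Kpna4, an importin alpha known for carrying NF-κB, rose by 0.68 ± 0.12 (adjusted p = 0.000243), from a mean of 10.41 to 11.09. Ranbp2 rose by 0.41 ± 0.11 (adjusted p = 0.0167), a call lost without untreated array 1 (adjusted p = 0.0557) or WT 2 h array 17 (adjusted p = 0.123). With the mean of all probe sets of a gene the changes of Nup50 and Ranbp2 at 2 h were 0.12 and 0.16 and did not pass (adjusted p = 0.295 and 0.583).

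The 9 falls at 2 h came from 6 of the 10 roles. Nup37 had 10.38, 10.33, 10.45 and 10.37 in untreated WT arrays and 9.36, 9.55 and 9.45 at 2 h, without overlap, and fell by 0.93 ± 0.07 (adjusted p = 1.48e-08). Rcc1 was at 9.63, 9.24 and 9.36 at 2 h, below its 4 untreated arrays, a change of −0.77 ± 0.24 (adjusted p = 0.0338). Nup43 fell by 0.68 ± 0.18, Kpna6 by 0.66 ± 0.14, Rae1 by 0.62 ± 0.06, Nupl2 by 0.44 ± 0.10 and Nup88 by 0.35 ± 0.08. Ipo11 and Xpo7, which carry a ubiquitin-conjugating enzyme inward and many soluble proteins outward, fell by 0.29 ± 0.09 and 0.28 ± 0.08. Of these calls 4 were lost without single arrays. For Nup43 it was WT 2 h array 17 (adjusted p = 0.101). For Rcc1 the adjusted p was 0.0701 to 0.137 without untreated array 1 or 13 or WT 2 h array 17 or 37. For Xpo7 it was 0.0628 to 0.153 without untreated array 16 or 36 or WT 2 h array 17. For Ipo11 it was 0.0828 to 0.212 without untreated array 13 or 16 or WT 2 h array 2 or 37.

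Probe sets of one gene did not always move alike at 2 h, and for Nup50 and Kpna6 a pair of them passed in opposite directions. The brightest probe set of Nup50 rose by 0.98, and another fell by 0.40 (adjusted p = 0.0201), from a mean of 9.27 to 8.86. For Kpna6 the brightest fell by 0.66, and another rose by 0.71 (adjusted p = 0.0212), from 5.82 to 6.53. A second probe set of Kpna4 rose by 1.70 (adjusted p = 9.88e-06), and Nup98 is measured by a single one. Xpo1 and Kpnb1, whose brightest probe sets had changes of −0.06 and −0.32 at 2 h (adjusted p = 0.737 and 0.188), each had another that fell, by 0.64 (adjusted p = 0.0056) and 0.96 (adjusted p = 0.000516). For Nup54 and Tnpo3 the brightest had changes of −0.26 and −0.16 (adjusted p = 0.153 and 0.18). Another of each fell, by 0.36 (adjusted p = 0.0381) and 0.31 (adjusted p = 0.0344). At 6 and 24 h 0 genes had probe sets that passed in opposite directions. Of the 90 probe sets 39 were lower at 6 h and 67 at 24 h, with 0 higher at either time. Probe sets that fell together also differed in size. For Ran the brightest probe set, of a kind whose probes can also match other transcripts, fell by 0.73 at 24 h, and another, without that mark in its name, fell by 1.57 (adjusted p = 2.17e-09).

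Promoter sequences are shown for genes of contrasting early response and for the clearest matches to a motif. Of the 45 genes 37 have a window in the RefSeq promoter table (GRCm38.p6), 250 bases before to 50 after the annotated start, as have 9882 of all array genes. The cAMP response element TGACGTCA, the site of CREB family factors, was searched on both strands, as were its shorter core TGACG, which every full element contains, the E-box CACGTG, the E2F words TTTCGCGC and TTTGGCGC and the CCAAT box. The stretches below run 5′ to 3′ on the gene's strand and end at the base before the start, with capitals for the core in Nup98, the full element in Nup133 and the E-box in Nup188. Nup98, with 2 matches to the core in this stretch, and Nup50, with none, had the largest rises at 2 h, Nup133 holds 2 full elements, and Nup188 holds 2 E-boxes.
Nup98, chr7:102210167-102210316, minus strand: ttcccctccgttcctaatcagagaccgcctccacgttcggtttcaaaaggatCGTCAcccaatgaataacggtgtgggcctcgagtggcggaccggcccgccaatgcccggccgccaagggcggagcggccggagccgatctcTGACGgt
Nup50, chr15:84923278-84923427, plus strand: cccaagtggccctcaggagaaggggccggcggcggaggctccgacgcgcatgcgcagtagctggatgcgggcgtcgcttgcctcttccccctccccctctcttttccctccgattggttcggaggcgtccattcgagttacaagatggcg
Nup133, chr8:123949266-123949415, minus strand: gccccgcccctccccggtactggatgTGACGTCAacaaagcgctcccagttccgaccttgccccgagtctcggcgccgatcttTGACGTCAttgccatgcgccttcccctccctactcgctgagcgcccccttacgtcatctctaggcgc
Nup188, chr2:30286266-30286415, plus strand: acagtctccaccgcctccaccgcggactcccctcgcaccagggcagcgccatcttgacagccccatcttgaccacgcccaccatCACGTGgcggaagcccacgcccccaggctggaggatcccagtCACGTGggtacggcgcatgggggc

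The full element lay in the windows of 2 of the 37 genes, Nup133 and Nupl2, which is 5.41% against 3% of all array genes. It was in 0 of the 4 genes that rose at 2 h, and the core was in 2 of them, Nup98 and Ranbp2. Nup133, whose printed stretch holds 2 full elements, had a change of 0.21 ± 0.15 at 2 h (adjusted p = 0.434). The core was in 18 genes (48.6% against 31.4%), the E-box in 8 (21.6% against 10.8%) and the CCAAT box in 19 (51.4% against 42.3%). TTTCGCGC was in 1 gene, Ipo7 (2.7% against 0.698%), and TTTGGCGC in 0 (0% against 0.982%). Matches are descriptions of these windows, and binding was not measured.

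By 6 h 25 of the 45 genes had fallen, 0 had risen and 20 did not pass, with 11.1% of all genes called lower and 11% higher. The median was −0.42, against −0.03 for all genes. In 26 genes all 3 arrays lay below the 4 untreated WT arrays, against 21.9% of all genes, and in 24 below every untreated WT and Kin- array, against 9.13%. With the set term 28 fell, within arrays 16 to 47 26 fell, and within arrays 1 to 14 0 passed, although the median there was −0.36. Again 0 rose in each of these, and array weights gave 2 higher.

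Nup210 had the largest change at 6 h. Its levels were 9.91, 10.20, 10.35 and 10.21 in untreated WT arrays, 9.84, 10.18 and 9.89 at 2 h, 8.61, 8.23 and 8.29 at 6 h, and 8.98, 7.99 and 8.45 at 24 h. The 2 h arrays overlapped the untreated ones and the later arrays did not. The change was −1.79 ± 0.15 (adjusted p = 3.77e-08) at 6 h. Xpo5 fell by 1.62 ± 0.27 (adjusted p = 0.000113) and Rcc1, at 9.35, 8.65 and 8.68, by 1.29 ± 0.24 (adjusted p = 0.000417). Nup85, Nup43, Ipo5, Ipo7, Nup107, Xpo4 and Kpnb1 completed the 10 largest falls at 6 h, between 0.97 and 0.70. Kpnb1 stood at 11.13, 10.80 and 10.87, below its 4 untreated arrays.

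The roles differed in how many of their genes had passed at 6 h. All 6 genes assigned to the Y complex had fallen (median −0.69), as had 2 of 3 inner ring genes and 3 of 4 filament genes. So had 6 of 10 of the importin beta family, 3 of 6 exportins and 3 of 4 of the Ran cycle. None of the 5 importin alpha genes passed, with Kpna3 closest (−0.56, adjusted p = 0.0512), neither basket gene passed, and 1 of 4 in the central channel, Nup54, did. At an unadjusted p under 0.05 in limma, 33 of all 45 genes were lower and 1 higher, with 30% of all array genes under 0.05 in either direction. Kpna2 was at 12.46, 12.65 and 12.40 at 6 h, within its untreated range or just above it, with a change of 0.04 ± 0.19 (adjusted p = 0.923). Xpo1 was at 11.65, 11.99 and 11.82 (0.02 ± 0.11, adjusted p = 0.933), Cse1l at 10.14, 10.52 and 10.32 (−0.33 ± 0.12, adjusted p = 0.063) and Ran at 14.53, 14.49 and 14.56 (−0.23 ± 0.09, adjusted p = 0.103). For Cse1l and Ran all 3 arrays lay below the untreated ones, and for Kpna2 and Xpo1 they overlapped. Some of these calls turned on how the array sets were treated. Kpna3 and Nup153 passed with the set term (−0.61 and −0.45, adjusted p = 0.0028 and 0.0118) and with the series, runs of consecutive array numbers, as a block (adjusted p = 0.00451 and 0.0096). The block ended the calls of Nup133, Nup188, Xpo4 and Rangap1 (adjusted p = 0.0616 to 0.0886) and gave a call for Xpo7, and the set term gave one for Cse1l. Another probe set of Kpna3 fell by 0.64 (adjusted p = 0.00248), and another of Ran fell by 0.80 (adjusted p = 4.71e-05) at 6 h. Another of Xpo7 fell by 0.35 (adjusted p = 0.00446).

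Of the 25 calls at 6 h 6 were lost without one or another single array. The adjusted p was 0.0569 to 0.0829 for Nup133 (untreated array 16, WT 6 h array 3 or 38), 0.0942 to 0.256 for Nup160 (untreated 16 or 36, 6 h 3 or 38) and 0.0553 to 0.13 for Nup188 (untreated 13, 16 or 36, 6 h 18 or 38). It was 0.0567 to 0.195 for Xpo4 (untreated 1, 13 or 16, 6 h 3 or 38), 0.059 to 0.105 for Xpo6 (untreated 16 or 36, 6 h 3 or 18) and 0.0505 to 0.195 for Rangap1 (untreated 13, 16 or 36, 6 h 3, 18 or 38).

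**Figure D3:**
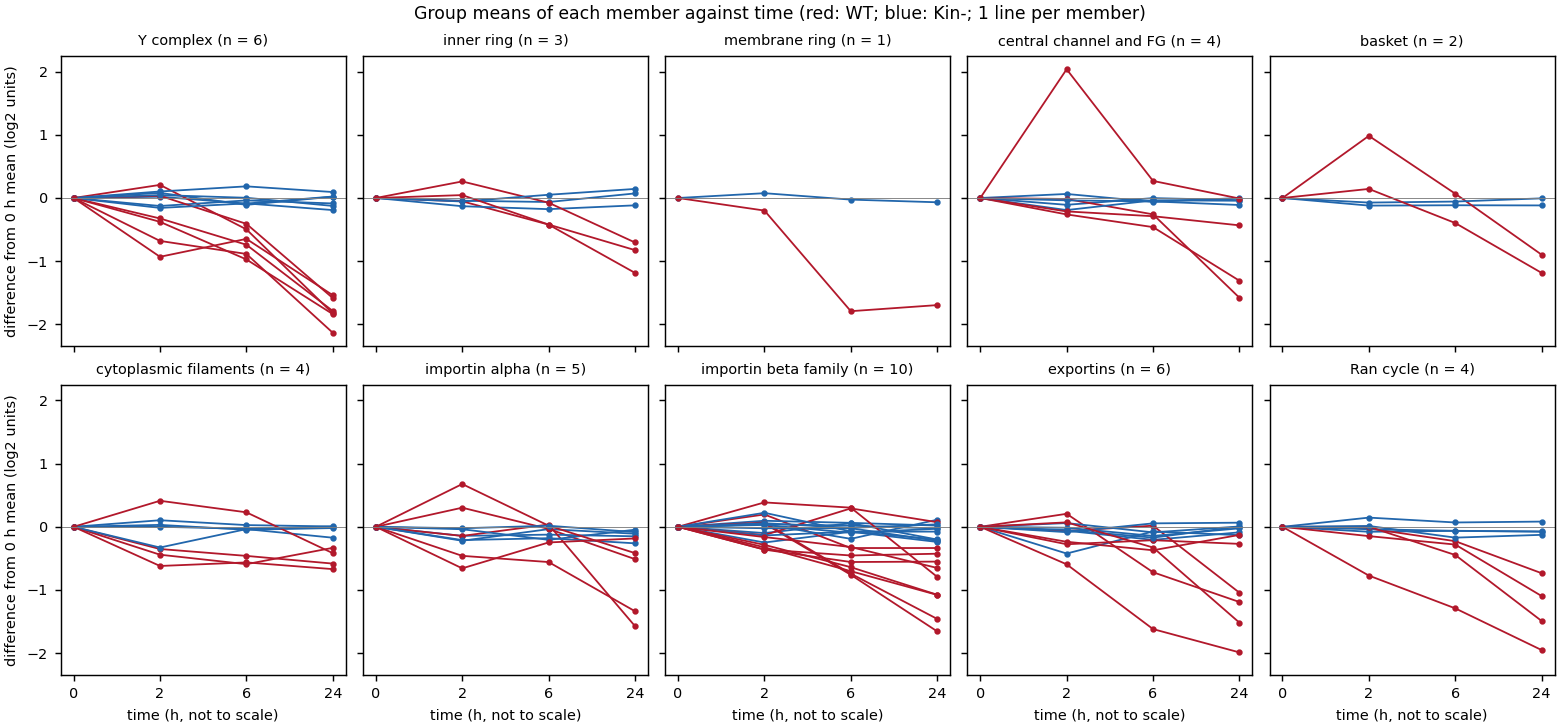
Difference of each group mean from the 0 h mean of its line (log2 units) against time, 1 panel per role and 1 line per gene, WT in red and Kin- in blue. The 6 Y complex lines end between −1.54 and −2.13 at 24 h, Nup98 peaks at 2.04 at 2 h, Nup210 reaches −1.79 at 6 h, and Kin- lines stay between −0.42 and 0.22.

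Successive times were then compared directly, with the untreated arrays entering only the estimate of spread. Between 2 and 6 h 15 genes fell and 1 rose, with 6.38% of all genes lower and 7.64% higher. Of the genes that had risen at 2 h, Nup98 fell by 1.77 ± 0.22 (adjusted p = 1.98e-05), from 9.01, 9.73 and 9.60 to 7.31, 8.16 and 7.57. By their brightest probe sets Nup50 fell by 0.92 ± 0.13 (adjusted p = 0.000104) and Kpna4 by 0.66 ± 0.12 (adjusted p = 0.00107). The other probe sets of Nup50 went the other way, with WT means from 8.86 to 9.41 and from 6.82 to 7.27. The other of Kpna4 went from 5.86 to 4.58. Nup210 fell by 1.59 ± 0.17 (adjusted p = 2.92e-06), and Ipo5 and Ipo7 by 0.81 each. Nup37 was the gene that rose, by 0.28 ± 0.08 (adjusted p = 0.0212), a call lost without WT 2 h array 2 or 37 or WT 6 h array 3 or 38 (adjusted p = 0.0517 to 0.0705). Without single arrays the lower count ran from 7 (WT 6 h array 38) to 12, with 9 without WT 2 h array 37, and the higher count was 0 without WT 2 h array 2 or 37 or WT 6 h array 38 and 2 without WT 2 h array 17.

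Between 6 and 24 h 27 genes fell and 0 rose, with 9.84% of all genes lower and 9.85% higher. The largest falls were those of Kpna2 with 1.61 ± 0.20 (adjusted p = 6.74e-06), Nup133 with 1.33 ± 0.16, Nup62 with 1.32 ± 0.13 (adjusted p = 3.01e-07), Nup43 with 1.25 ± 0.20, Cse1l with 1.19 ± 0.13 (adjusted p = 9.66e-07), Nup160 with 1.17 ± 0.15, Ipo9 with 1.10 ± 0.32 (adjusted p = 0.0205) and Xpo1 with 1.06 ± 0.12 (adjusted p = 1.06e-06). The importin alpha gene Kpna2, its exporter gene Cse1l and the channel nucleoporin gene Nup62 fell in this interval, and Nup210 had a change of 0.10 ± 0.17 (adjusted p = 0.861). Cse1l had also fallen between 2 and 6 h, by 0.40 ± 0.13, a call lost without any of 5 single arrays (adjusted p = 0.0623 to 0.185). Of the 27 calls between 6 and 24 h, 6 were lost without at least 1 array. That of Ipo9 was lost without WT 6 h array 18 or 38 or WT 24 h array 4 or 19 (adjusted p = 0.0601 to 0.0914). The adjusted p was 0.0594 to 0.238 for Nup85, 0.0569 to 0.0941 for Kpna3 and 0.0656 to 0.107 for Kpna4. Without WT 24 h array 19 it was 0.0627 for Nup155 and 0.0671 for Kpna1. Ran fell by 0.51 ± 0.10 and Ranbp1 by 1.04 ± 0.12. A fit on the 6 arrays of these 2 groups alone called 14 lower in place of 27.

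In Kin- cells no gene passed at any time. In limma 0 of the 45 genes passed at 2, 6 or 24 h, and 0% of all genes did, with 0 probe sets called at each time. At an unadjusted p under 0.05 in limma there was 1 gene per time: Ranbp2 at 2 h with a change of −0.33, Nup37 at 6 h with 0.18 and Kpna4 at 24 h with −0.26. By the same rule 2.17%, 1.93% and 2.32% of all genes were below 0.05. These tests use 1 spread over the 8 groups, WT included, and the absence of calls does not show that Kin- levels stayed the same. The medians of the 45 genes were −0.04, −0.06 and −0.05. Rcc1 ranged from 10.10 to 10.58 in the untreated Kin- arrays and was at 10.45, 10.13 and 9.99 at 24 h. Kpna2 was at 12.52, 12.60, 12.46 and 12.60 untreated and at 12.42, 12.32 and 12.44 at 24 h, all slightly below the untreated arrays, with a change of −0.15 ± 0.19.

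The difference between the WT and the Kin- response was tested at each time in the same fit, and it shares the untreated arrays with the comparisons above. At 2 h it passed above 0 for 4 genes and below 0 for 4, against 3.7% and 4.02% of all genes. The first 4 were Nup98 (2.08 ± 0.29, adjusted p = 7.65e-05), Nup50 (1.10 ± 0.18), Kpna4 (0.89 ± 0.16) and Ranbp2 (0.74 ± 0.16). The other 4 were Nup37 (−1.03 ± 0.11, adjusted p = 1.46e-06), Rae1 (−0.62), Nupl2 (−0.55) and Nup88 (−0.38). The call of Nup88 was lost without any of 7 single arrays (adjusted p = 0.0515 to 0.106).

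At 6 h the difference passed below 0 for 12 genes and above 0 for none, against 6.54% and 5.91% of all genes. At an unadjusted p under 0.05 in limma 0 of the 45 were above 0, with 22.2% of all genes under 0.05 in either direction. The point estimate was below 0 for 35 genes and above 0 for 10. It was largest for Nup210 (−1.77 ± 0.22, adjusted p = 1.51e-05) and Xpo5 (−1.47 ± 0.37). The calls of Nup107, Nup43, Ranbp1 and Rcc1 were each lost without at least 1 array. At 24 h the difference passed below 0 for 31 genes and above 0 for none, against 12% and 11.7% of all genes. At an unadjusted p under 0.05 in limma 0 of the 45 were above 0, with 31.2% of all genes under 0.05 in either direction. The point estimate was below 0 for 43 genes and above 0 for 2. Nup43 (−2.01 ± 0.26), Xpo5 (−1.96 ± 0.37), Nup133 (−1.85 ± 0.22) and Rcc1 (−1.82 ± 0.34) had the largest differences. Of the 31 calls those of Xpo4 and Xpo7 were lost without at least 1 array. Within arrays 16 to 47 the counts were 3 and 5 at 2 h, 0 and 13 at 6 h and 0 and 33 at 24 h.

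**Figure D4:**
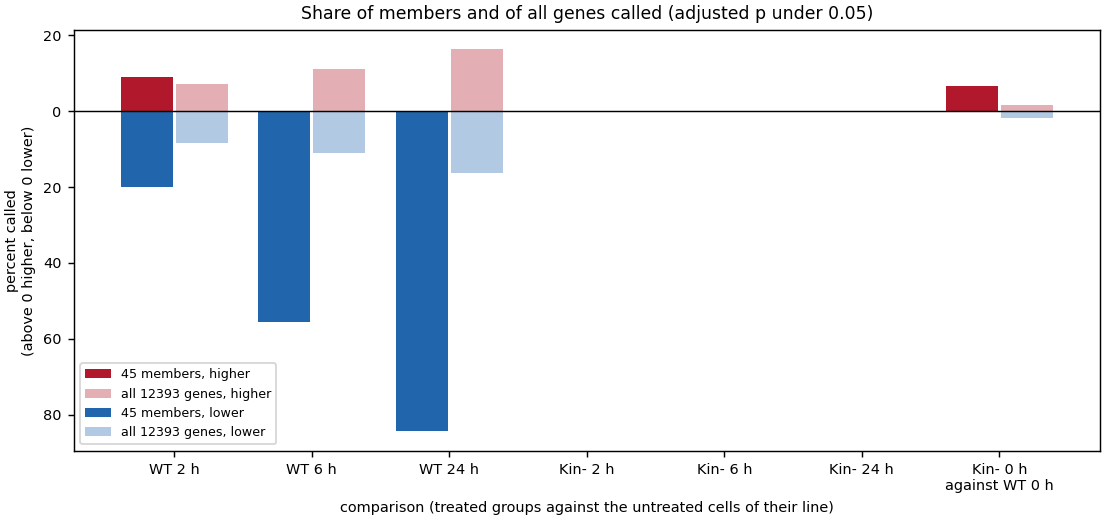
Percent of the 45 genes (dark bars) and of all 12393 genes (pale bars) called at adjusted p under 0.05, higher above 0 and lower below it, for each treated group against the untreated cells of its line and for untreated Kin- against WT. At 24 h in WT the lower bar is 84.4% for the 45 genes and 16.3% for all genes, and Kin- times have no bars.

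The untreated lines were compared to ask how they differed before the analog. Untreated Kin- cells were higher than untreated WT in 3 genes and lower in 0, with 1.74% of all genes higher and 1.73% lower. At an unadjusted p under 0.05 in limma the counts were 9 and 1, with 12.4% of all genes under 0.05 in either direction. Ipo8, which carries Argonaute and SMAD proteins, had 8.80, 8.62, 9.15 and 9.07 in WT and 9.50, 9.69, 9.67 and 9.52 in Kin-, without overlap, a difference of 0.69 ± 0.12 (adjusted p = 0.00195). Tnpo3 was 0.42 ± 0.07 higher (adjusted p = 0.00107), with 10.83 to 11.17 in WT against 11.39 to 11.49. Kpna4 was 0.46 ± 0.11 higher (adjusted p = 0.0187), a call lost without WT 0 h array 36 (adjusted p = 0.0728) or Kin- 0 h array 14 or 40 (adjusted p = 0.0665 and 0.0851). The median difference of the 45 genes was 0.08, with 36 above 0, against −0.01 for all genes. Array weights called 6 higher.

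At 6 and 24 h the median of the 45 genes was lower in each treated WT array than in any untreated one. The median, each gene taken as the difference from its untreated WT mean, was −0.17, −0.13 and −0.06 in the 3 arrays at 2 h, −0.50, −0.38 and −0.44 in the 3 arrays at 6 h and −0.82, −1.22 and −1.02 in the 3 at 24 h. In the 4 untreated WT arrays it lay between −0.11 and 0.10, a range that holds the 2 h array at −0.06, and in the 13 Kin- arrays, against their own untreated mean, between −0.12 and 0.08. The medians of all genes stayed between −0.07 and 0.08 over the 26 arrays.

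**Figure D5:**
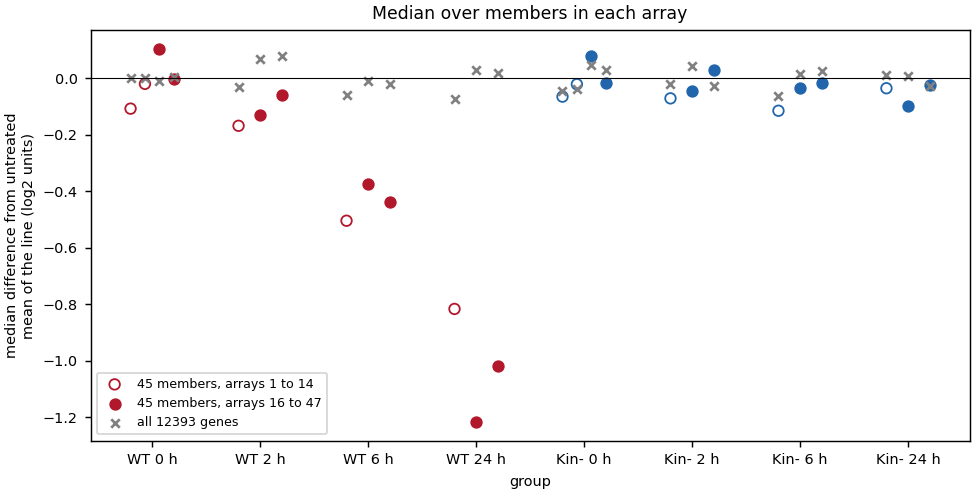
Median over the 45 genes of the difference from the untreated mean of the line (log2 units), 1 circle per array (open for arrays 1 to 14, filled for arrays 16 to 47; WT red, Kin- blue), with the median of all 12393 genes of the array as a grey cross. The 3 WT arrays at 24 h lie between −0.82 and −1.22, and the Kin- arrays lie between −0.12 and 0.08.

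Other genes of nuclear transport were counted for comparison. Of 16 further pore and transport genes, 3 fell and 1 rose at 2 h, 7 and 1 at 6 h, and 12 and 1 at 24 h, where the median was −0.68. Among all genes 8.44% were lower and 7.25% higher at 2 h, 11.1% and 11% at 6 h, and 16.3% and 16.3% at 24 h. The largest changes at 24 h were falls of 1.72 for Xpot, the exporter of transfer RNA, 1.72 for Rangrf, a Ran release factor, 1.68 for Ndc1, a membrane nucleoporin, and 1.33 for Aaas. Ranbp10 rose by 1.06. Of 18 mRNA export genes 0 passed in limma at 2 h, 4 fell and 1 rose at 6 h, and 10 fell and 0 rose at 24 h, with a median of −0.52. The largest were falls of 1.23 for Nxt1, the partner of the export receptor Nxf1, 1.15 for Alyref, 1.03 for the helicase gene Ddx39a and 0.98 for Thoc3. In Kin- cells 0 genes of these lists passed at any time.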

How the data were processed

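Messenger RNA in total RNA of 26 samples was measured on arrays of 22626 probe sets. The values are processed scores that the authors deposited as 1 table with a column per array; the software behind the scores, their normalization and scale were not given in the sources used here. No raw intensities were used, so background and scanner effects could not be examined. The square root of each score (0.612 to 16.4) was taken as log2 intensity. Groups came from the sample titles. Probe sets were named from the platform annotation: 20380 had 1 symbol, 691 several and 1555 none, and none was named from several symbols.

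Group means of each probe set were modelled in limma 3.58.1 under R 4.3.3 (lmFit, eBayes, no covariate, 1 spread over the 8 groups), checked on simulated data. Genes and lists were chosen with earlier results of these data known. Named were the 10 largest changes each way that passed at each WT time, genes that passed at WT 2 h, in Kin- or between the untreated lines, genes against the main direction and genes with probe sets of opposite sign. Alternatives covered scale, quantile normalization, array set and series, array weights, moderation, fit samples, mean of probe sets, a filter on dim probe sets and each array left out.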

Additional observations from a re-analysis of the deposited data

Results flagged for a closer look

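The difference between the WT and the Kin- response, tested in limma as an interaction, passed for the genes below, with the difference of the log2 changes (WT minus Kin-) after each name. At 2 h it was 2.08 for Nup98, 1.10 for Nup50, 0.89 for Kpna4 and 0.74 for Ranbp2, and −1.03 for Nup37, −0.62 for Rae1, −0.55 for Nupl2 and −0.38 for Nup88. At 6 h all 12 were negative: −1.77 for Nup210, −1.47 for Xpo5, −1.12 for Rcc1, −0.89 for Nup43, −0.83 for Nup37, −0.80 for Ipo7, −0.63 for Nup107, −0.62 for Nupl2, −0.56 for Ipo11, −0.53 for Rae1, −0.51 for Ranbp1 and −0.41 for Nup88.

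At 24 h all 31 were negative. In the Y complex the difference was −2.01 for Nup43, −1.85 for Nup133, −1.81 for Nup107, −1.65 for Nup85, −1.63 for Nup37 and −1.50 for Nup160. In the rest of the pore it was −1.63 for Nup210, −1.58 for Nup62, −1.28 for Nup54, −1.26 for Nup93, −1.18 for Nup153, −0.97 for Nup188, −0.78 for Nup50, −0.67 for Rae1 and −0.56 for Nup88. Among importins it was −1.77 for Ipo5, −1.48 for Ipo7, −1.42 for Kpna2, −1.29 for Kpna3, −0.999 for Ipo11, −0.84 for Kpnb1 and −0.62 for Tnpo3. Among exportins it was −1.96 for Xpo5, −1.52 for Cse1l, −1.06 for Xpo4, −0.96 for Xpo1 and −0.34 for Xpo7. In the Ran cycle it was −1.82 for Rcc1, −1.57 for Ranbp1, −1.02 for Rangap1 and −0.66 for Ran. These differences share the untreated arrays of both lines.

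In the 90 sets of 4 untreated arrays (45 genes in either line) 0 arrays stood apart by Dixon's criterion.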

How the results depend on the processing

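Counts are of genes called higher or lower out of 45. The fall at 24 h in WT kept 36 to 39 lower genes without single arrays. Within arrays 1 to 14, with a single treated array per group, the lower counts were 0 at 2 h, 0 at 6 h and 25 at 24 h, 0 and 0 between successive times, and 0, 0 and 5 for the differences between lines at 2, 6 and 24 h; the higher counts were 0 at 2 h, 0 between 2 and 6 h, 0 for untreated Kin- against WT and 0 for the difference at 2 h. Array weights gave 15 lower at 2 h, 2 higher at 6 h, 2 higher from 2 to 6 h, 1 higher from 6 to 24 h, 6 higher in untreated Kin-, and 7 and 20 lower for the differences at 2 and 6 h. The mean of all probe sets gave 2 higher at 2 h and 2 for that difference, and turned Kpna6 at 2 h to 0.0266 and Nup50 from 2 to 6 h to 0.0285; both have probe sets of opposite sign at 2 h. From 2 to 6 h the higher count was 0 with log2 of the score, 2 with quantile normalization, 3 with the set term, 3 with the series as a block, 0 with only the compared groups and 2 with the dim filter. From 6 to 24 h it was 2 with the set term and 1 with the block, and only the compared groups gave 14 lower. Without single arrays the higher count at 6 h ran from 0 to 1, and from 2 to 6 h it ran from 0 to 2 and the lower count from 7 to 12. Where no reason is given, the cause was not tested. The series lie within the lines, so the block was not run for untreated Kin- against WT. Arrays few in number and an unstated scale limit all values.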

Other observations

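Array 4, the WT 24 h array of the first set, gave the highest level of the 3 arrays at 24 h in 28 of the 38 genes that fell (73.7%). The same held for 68.8% of all 2017 genes called lower, and in 67.0% of the 2016 called higher array 4 gave the lowest level. At 6 h array 3 of the same set was highest in 9 of the 25 genes that fell (36.0%), against 62.6% of the 1381 genes called lower.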
